A study of Mus musculus with 2 samples.

Results

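Conventional type 1 dendritic cells (cDC1s) were picked out of sorted myeloid cells from colorectal polyps by their mRNA for Xcr1 or Clec9a. A cell barcode was a member when it held at least 1 unique molecular identifier (UMI, 1 counted mRNA molecule) of either gene, no fewer than 200 and no more than 4000 detected genes, and 10% or less of its UMIs from mitochondrial genes. It also had to lack Cd3d and Cd3e UMIs and stay under limits on 3 scores in UMIs per 10000: 20 for C1qa, C1qb and C1qc together, 80 for S100a8 and S100a9, and 5 for Fscn1, Ccl22 and Ccr7, called the maturation score here. Of 6547 barcodes in the series 5849 passed the gene and mitochondrial limits, and 93 of these were members, 37 in the wild type (WT) library and 56 in the Clec7a-/- library.

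Both libraries came from C57BL6/J mice that were 26 weeks old and had received azoxymethane, a colon carcinogen, and 3 cycles of 1% dextran sulfate sodium, which injures the colonic epithelium, over 16 weeks. The mice were WT or Clec7a-/-, lacking the gene of the beta-glucan receptor Dectin-1. Polyp-infiltrating CD11b+ and CD11c+ cells of several mice were pooled into 1 library for each genotype. With 1 library for each genotype no difference could be tested: every interval given is an exact 95% interval, and every limit for a count of 0 is a floor of 3 counts; both cover counting error only, and a difference between mice cannot be told apart from a difference between libraries.

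cDC1s take up dying cells and present their antigens to CD8 T cells on MHC class I, a route called cross-presentation. Xcr1, a chemokine receptor, brings them to cells that secrete Xcl1, and Clec9a, a C-type lectin, binds actin exposed on dead cells. Their development needs the transcription factors Irf8 and Batf3. When they mature they switch on Ccr7, the receptor that leads them to lymph nodes, along with Fscn1 and Ccl22, so the members are by construction the end with little maturation mRNA.

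The members held 177679 UMIs in WT and 361453 in Clec7a-/-. A WT member had a median of 4029 UMIs (2055 to 13293) and a Clec7a-/- member 5976 (1148 to 19706), so the Clec7a-/- members were the deeper ones although their library as a whole was the shallower (median 2696.5 UMIs a barcode against 3246 in WT). Mitochondrial UMIs made up a median of 4.28% in WT and 5.10% in Clec7a-/- members. Between the libraries 17 barcode sequences were shared, and 0 of them belonged to members.

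The members are the low end of a gradient. Of the 5849 barcodes, 561 had an Xcr1 or Clec9a UMI, 505 of those passed all limits other than the maturation score, and 412 of the 505 were over that limit. Members were 20.7% (15.0 to 27.3) of such barcodes in WT and 17.2% (13.2 to 21.7) in Clec7a-/-. The highest scores inside the limit were 4.60 and 4.56 in WT and 4.83 and 4.82 in Clec7a-/-, and the lowest outside were 5.20 and 5.41 in WT and 5.22 and 5.46 in Clec7a-/-, so no gap marked the limit. Among members, 25 in WT and 25 in Clec7a-/- had 0 UMIs of the 3 maturation genes.

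The upstream sequences of the 2 genes that chose every member are printed here to show what precedes their start sites. They come from RefSeq (build GRCm38.p6) and run from 250 bases before the start to 50 after it. Capitals mark matches on either strand to GAAANNGAA, a short form of the interferon response motif that Irf family factors read, or to TGANTCA, the AP-1 motif that Batf family factors read with Jun. The window of Xcr1 (chr9:123861980-123862279, minus strand) held no match to either, and that of Clec9a (chr6:129408612-129408911, plus strand) held 1 match to the former, written on its reverse strand.
Xcr1: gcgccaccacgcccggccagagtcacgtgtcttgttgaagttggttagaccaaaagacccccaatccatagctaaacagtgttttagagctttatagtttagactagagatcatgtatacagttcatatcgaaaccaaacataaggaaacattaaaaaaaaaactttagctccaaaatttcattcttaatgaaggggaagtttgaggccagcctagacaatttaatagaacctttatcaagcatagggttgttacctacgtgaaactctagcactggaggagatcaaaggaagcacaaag
Clec9a: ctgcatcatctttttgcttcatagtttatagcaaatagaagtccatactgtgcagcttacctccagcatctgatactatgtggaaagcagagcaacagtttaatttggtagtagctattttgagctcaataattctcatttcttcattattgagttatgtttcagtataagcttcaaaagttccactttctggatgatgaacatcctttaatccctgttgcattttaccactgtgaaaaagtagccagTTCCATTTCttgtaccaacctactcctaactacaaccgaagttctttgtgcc
Of 32851 promoter windows of this length, 8.56% held the interferon response letters and 7.81% the AP-1 letters.

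Members carried several genes of the cDC1 program that the selection did not use, which is a check of the label. Itgae, which encodes CD103, the integrin subunit that marks intestinal cDC1s, stood at 332 CPM (UMIs of a gene per 1000000 UMIs summed over a class; 253 to 428) in WT and 376 (316 to 445) in Clec7a-/-. Mature dendritic cells, which here means barcodes without Xcr1 or Clec9a whose maturation score was at least 20, had 41.4 and 35.2, and C1q macrophages 0.698 and 1.49. Wdfy4, needed for cross-presentation of cell-bound antigen, was at 219 (156 to 300) and 440 (374 to 514) in members, against 68.4 and 51.9 in mature dendritic cells. Naaa, a lysosomal acid amidase, was at 141 (91.1 to 208) and 335 (278 to 400), against 15.3 and 14.1. The intervals of the 3 genes lay above the levels of mature dendritic cells in both libraries. Type 2 dendritic cells were closer, with 255 and 160 CPM of Itgae, 149 and 203 of Wdfy4 and 42.5 and 283 of Naaa.

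Irf8 did not mark the members in the same way. It stood at 242 CPM (175 to 326) in WT and 293 (240 to 355) in Clec7a-/- members but at 407 and 498 in mature dendritic cells. Batf3 was nearly absent: 0 UMIs in WT, which allows up to 16.9 CPM (a floor of 3 counts), and 5 UMIs in 5 Clec7a-/- barcodes. Tlr3, the sensor of double-stranded RNA known from cDC1s, had 0 and 1 UMI. The cDC1 markers Gcsam and Snx22 were nearly absent as well, with 0 UMIs each in WT and 2 and 1 in Clec7a-/- members. The cystatin gene Cst3 was at 22214 and 22410 CPM, above every other class in both libraries.

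**Figure D1:**
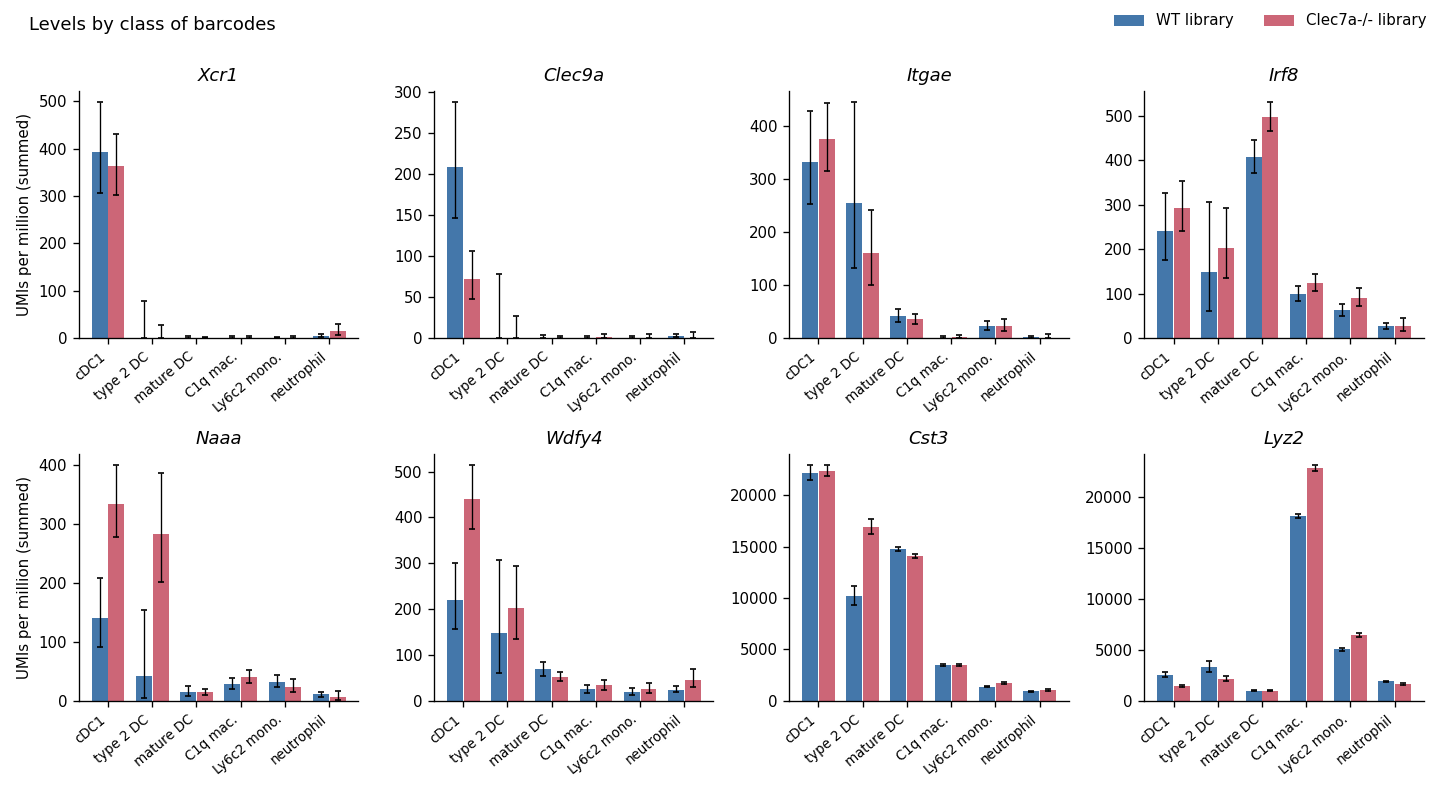
Summed CPM of 8 genes in 6 classes of barcodes, WT (blue) and Clec7a-/- (red), with exact 95% Poisson intervals. Xcr1 and Clec9a chose the members and are absent from type 2 and mature dendritic cells by definition; Itgae and Wdfy4 were highest in members, whereas Irf8 was highest in mature dendritic cells.

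Stray UMIs of the 2 selecting genes were counted in classes that should lack them; free mRNA and doublets, which were not removed, cannot be told apart as their source. An Xcr1 UMI was found in 11 of 785 neutrophil barcodes in WT (1.40%, median 2933 UMIs) and 7 of 363 in Clec7a-/- (1.93%, median 1215 UMIs). It was found in 1 of 211 and 1 of 220 C1q macrophages (0.474% and 0.455%, medians of 6268 and 5641 UMIs) and in 2 of 53 and 4 of 115 T cells (3.77% and 3.48%, medians of 2521 and 1812 UMIs). Clec9a was found in 5 of 785 and 0 of 363 neutrophils, 0 of 211 and 1 of 220 C1q macrophages and 1 of 53 and 1 of 115 T cells. Monocytes, type 2 and mature dendritic cells held neither gene by definition. Among 10 markers outside the selection (Itgae, Batf3, Naaa, Wdfy4, Cadm1, Tlr3, Ifi205, Gcsam, Snx22 and Rab7b), at least 2 UMIs were present in 27 of 37 WT members (73.0%, 55.9 to 86.2) and 50 of 56 Clec7a-/- members (89.3%, 78.1 to 96.0). The same was seen in 11.3% and 7.02% of monocytes, 3.69% and 1.38% of neutrophils and 14.0% and 16.5% of mature dendritic cells. It was also seen in 64.0% and 61.8% of C1q macrophages, where Cadm1 was at 195 and 175 and Rab7b at 273 and 276 CPM. The 10 markers thus separate members from macrophages less well than from monocytes, neutrophils and mature dendritic cells. Type 2 dendritic cells and T cells were not counted in this way.

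Members picked on a lone UMI were a different set in WT. In 16 of 37 WT and 21 of 56 Clec7a-/- members the choice rested on 1 UMI of Xcr1 and Clec9a together. Lyz2, the lysozyme gene of monocytes and macrophages, stood at 4785 CPM in the 16 WT barcodes against 1508 in the 21 WT barcodes with 2 or more UMIs, and at 703 and 1670 in the corresponding Clec7a-/- barcodes. The MHC class II gene H2-Ab1 was at 5617 against 18676 in WT and 15099 against 16745 in Clec7a-/-. Naaa was at 34.7 against 192 in WT and 575 against 250 in Clec7a-/-. Of the 16 WT barcodes, 7 had 0 UMIs of the 10 other markers, against 2 of the 21 Clec7a-/- barcodes. On these genes the 16 WT barcodes stood apart from the other members, and several of the counts that follow are also given for barcodes with 2 or more UMIs.

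**Figure D2:**
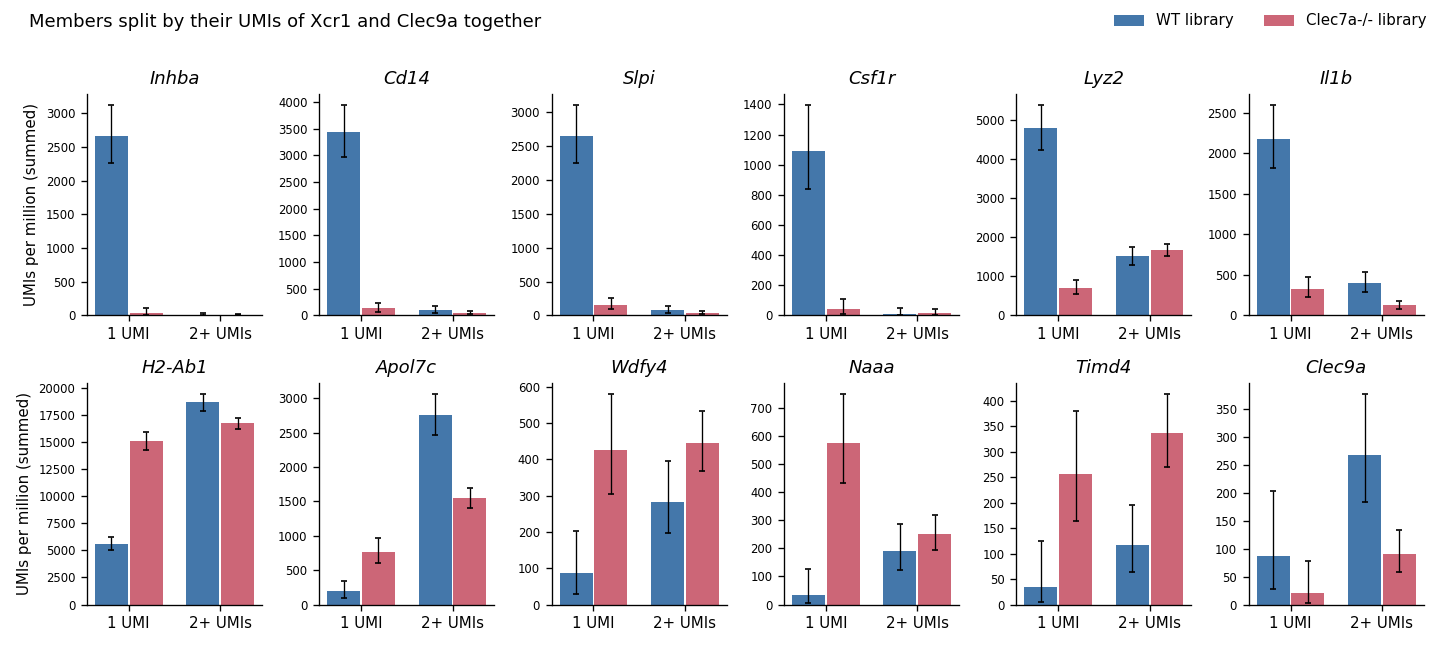
Summed CPM of 12 genes in members with 1 UMI or with 2 or more UMIs of Xcr1 and Clec9a together, WT (blue) and Clec7a-/- (red), with exact 95% Poisson intervals. Inhba, Cd14, Slpi and Csf1r were high only in the 16 WT barcodes with 1 UMI, and H2-Ab1, Apol7c and Wdfy4 were lowest there.

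cDC1s were a larger share of the Clec7a-/- library. They were 37 of 3147 kept barcodes in WT, 1.18% (0.829 to 1.62), and 56 of 2702 in Clec7a-/-, 2.07% (1.57 to 2.68). The ratio was 1.76-fold, a log2 ratio of 0.82 (0.19 to 1.46). With 2 or more UMIs of Xcr1 and Clec9a the shares were 0.667% and 1.30%, a log2 ratio of 0.96 (0.14 to 1.81). With the study's own mitochondrial limit of 5% the libraries held 25 members each, 0.927% and 1.25%, and the interval of the log2 ratio of 0.43 ran from -0.43 to 1.29.

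Other classes were also a larger share of the Clec7a-/- library. Without the maturation limit, Xcr1 or Clec9a barcodes were 5.69% (4.90 to 6.56) of WT and 12.1% (10.9 to 13.4) of Clec7a-/- kept barcodes, a log2 ratio of 1.08 (0.82 to 1.36). Mature dendritic cells without the 2 genes were 8.83% and 18.2%, a log2 ratio of 1.04 (0.83 to 1.26), and type 2 dendritic cells, chosen on Cd209a or Flt3, were 0.508% and 1.22%. T cells were 1.68% and 4.26%, a 2.53-fold ratio (1.81 to 3.57), and C1q macrophages 6.70% and 8.14%, 1.21-fold. Neutrophils, at 24.9% and 13.4%, took a smaller share of the Clec7a-/- library. Ly6c2 monocytes did too, at 12.6% and 10.5%, a log2 ratio of -0.26 (-0.49 to -0.04). Shares of a sorted pool sum to a whole, so a larger cDC1 share and a smaller neutrophil or monocyte share cannot be told apart. Among members, type 2 and mature dendritic cells together, cDC1s were 11.2% (7.99 to 15.1) in WT and 9.66% (7.38 to 12.4) in Clec7a-/-, a log2 ratio of -0.21 (-0.84 to 0.43), and -0.09 (-0.91 to 0.76) with 2 or more UMIs of Xcr1 and Clec9a. Its sign turned with Xcr1 alone (0.013), 2 UMIs of the other markers (0.050), thinning (0.075) and 5 UMIs of the other markers (0.56), so no direction is given.

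**Figure D3:**
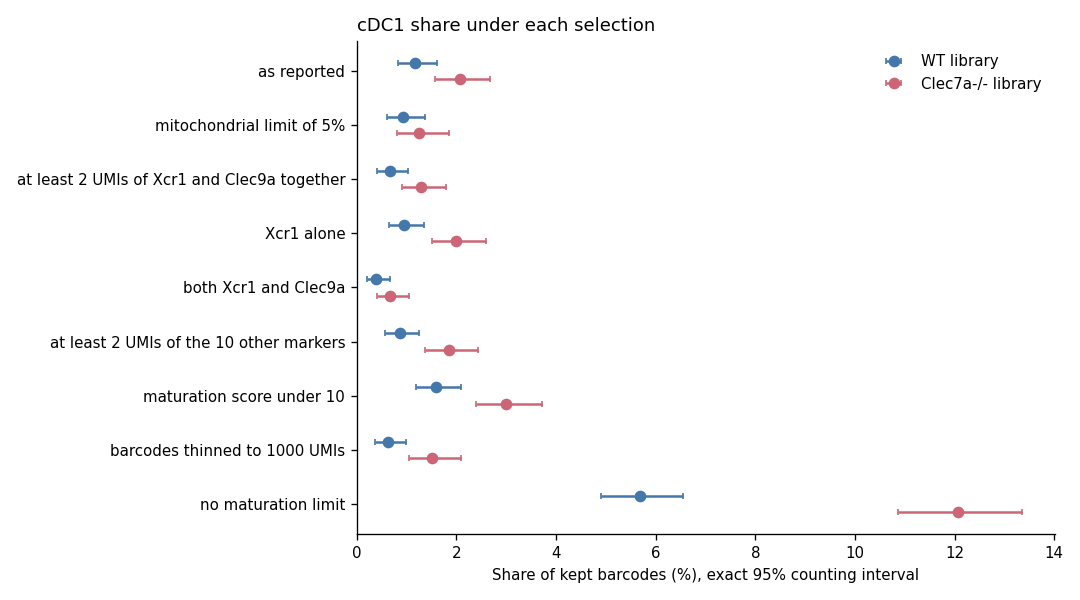
Share of kept barcodes (%) that were cDC1s under 9 selections, WT (blue) and Clec7a-/- (red), with exact 95% binomial intervals. The Clec7a-/- point lay to the right of the WT point under each of the 9.

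Some members carried cell cycle mRNA. At least 3 of 8 cycling genes were detected in 5 of 37 WT members (13.5%, 4.54 to 28.8) and 13 of 56 Clec7a-/- members (23.2%, 12.98 to 36.4), a log2 ratio of 0.78 with an interval from -0.80 to 2.62. With 2 or more UMIs of Xcr1 and Clec9a these were 4 of 21 and 9 of 35, a log2 ratio of 0.43 (-1.41 to 2.58). The same count gave 1.80% and 2.65% of mature dendritic cells, 1.76% and 2.46% of Ly6c2 monocytes and 6.16% and 8.64% of C1q macrophages. In type 2 dendritic cells it gave 0 of 16 and 3 of 33 barcodes (9.09%, 1.92 to 24.3), an interval that overlapped that of the members. Members were deeper than mature dendritic cells (medians of 3508.5 and 3265 UMIs), and after thinning each barcode to 1000 UMIs only 1 WT and 2 Clec7a-/- members met the count. The proliferation antigen gene Mki67 was at 84.4 and 96.8 CPM and the topoisomerase gene Top2a at 61.9 and 66.4 in members, against 25.2 and 10.3 for Top2a in mature dendritic cells. Among 31 cell cycle genes 31 were detected and 7 had at least 50 UMIs, with a median log2 ratio of Clec7a-/- over WT of 0.17 beside 0.04 over all genes tested.

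Along the maturation score Itgae, Naaa and Ppt1 were lowest, and Cacnb3 highest, at the mature end. The scores chose these bins, so the values are a description. Itgae went from 332 and 376 CPM (WT and Clec7a-/-) under a score of 5 to 150 and 145 at 50 and over. Naaa went from 141 and 335 to 29.4 and 29.7, and Ppt1, a lysosomal thioesterase, from 456 and 553 to 174 and 184 (with 739 in WT between 5 and 10). Cacnb3, a calcium channel subunit and a marker of migratory dendritic cells, went from 11.3 and 8.30 to 660 and 487. Irf8 was 66.2 and 144 between 5 and 10, below its level in members, and 575 and 584 at 50 and over, so its level was highest at the mature end. Xcr1 was between 362 and 638 in every bin of both libraries. Barcodes of every bin were chosen on an Xcr1 or Clec9a UMI, so this level is partly fixed by the choice.

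Il12b, the p40 subunit of interleukin 12 by which cDC1s drive type 1 T cell responses, was a gene of the mature end. Members had 0 UMIs in WT and 3 in Clec7a-/-. At a score of 20 to 50 it stood at 133 CPM (99.1 to 175) in WT and 25.1 (14.0 to 41.3) in Clec7a-/-, and at 50 and over at 519 (448 to 597) and 171 (141 to 205). It was found in 28 of 57 WT and 33 of 104 Clec7a-/- barcodes at the mature end. The Il12b intervals of the libraries did not overlap there, whereas each library's Irf8 level lay inside the other's interval.

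**Figure D4:**
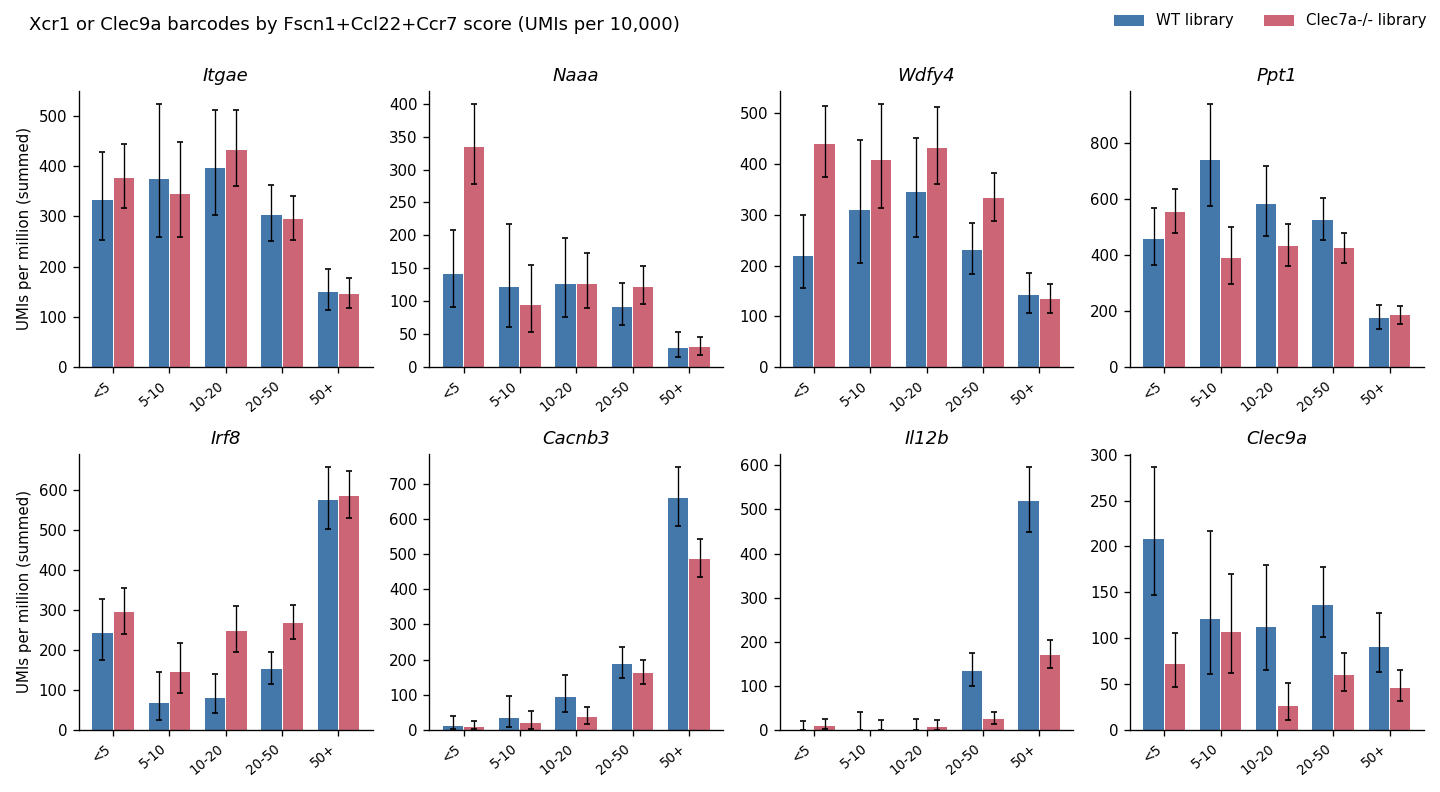
Summed CPM of 8 genes in Xcr1 or Clec9a barcodes in 5 bins of the maturation score (UMIs of Fscn1, Ccl22 and Ccr7 per 10000), WT (blue) and Clec7a-/- (red), with exact 95% Poisson intervals. Itgae, Naaa and Ppt1 were lowest and Cacnb3 and Il12b highest in the last bin.

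Genes that set members apart from the mature end were described by the smaller of the 2 libraries' ratios. Of 1794 genes with at least 50 UMIs in at least 10 members, outside the genes of the selection, 121 (6.74%) were at least 2-fold higher in members in both libraries and 62 (3.46%) at least 2-fold lower. The higher genes included Rab7b, a small GTPase of late endosomes, at 129 against 13.4 CPM in WT and 127 against 10.4 in Clec7a-/-. Havcr2, which encodes the checkpoint receptor TIM-3, was at 197 against 34.8 and 216 against 29.7. They also included Clec4e, Clec4d, Inhba and Slpi, of which 76 of 79, 101 of 107, 154 of 154 and 153 of 162 WT UMIs lay in the barcodes with 1 UMI of Xcr1 and Clec9a. The 2-fold counts were not recomputed without those barcodes. The lower genes included the chemokine Ccl17, at 158 against 1690 and 99.6 against 1461, and the costimulatory receptor Cd40, at 141 against 524 and 102 against 470. The minimum was set on members alone, so genes low in members could not enter and higher calls were favoured. Of 22 cDC1 identity genes 12 passed it, of which 4 were higher and 0 lower, with median log2 ratios of 0.60 in WT and 0.93 in Clec7a-/- beside 0.15 and 0.14 over all genes.

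Against type 2 dendritic cells 46 of the 1794 genes (2.56%) were at least 2-fold higher in members in both libraries and 24 (1.34%) at least 2-fold lower. The former count was 59 with 2 or more UMIs of Xcr1 and Clec9a, where fewer genes were tested, and 5 with a pseudocount of 5. It was 129 where the class was chosen by Cd209a alone, which left 3 WT and 12 Clec7a-/- barcodes. The other type 2 barcodes were chosen on Flt3, which members also carried at 163 and 238 CPM, and here too the minimum was set on members alone. Of the 12 cDC1 identity genes tested 2 were higher and 0 lower. That class held only 16 WT and 33 Clec7a-/- barcodes and itself contained Itgae, at 255 and 160 CPM, so it is a loose contrast. Apol7c, an apolipoprotein L gene linked to cross-presentation, was at 1919 against 128 CPM in WT and 1342 against 196 in Clec7a-/-. Ly75, which encodes the endocytic lectin DEC-205, was at 231 against 42.5 and 318 against 36.3. The serpin gene Serpinb9, an inhibitor of granzyme B, was at 1525 against 489 and 1522 against 523. Lower in members were the calcium-binding protein genes S100a4, at 259 against 1148 and 47.0 against 1395, and S100a6, at 281 against 1381 and 91.3 against 748.

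Between genotypes most genes of the members lay close together. Of 1797 genes with at least 50 UMIs in at least 10 members, 45 (2.50%) were at least 2-fold higher in Clec7a-/- and 77 (4.28%) at least 2-fold lower, and the median log2 ratio was 0.04. With 2 or more UMIs of Xcr1 and Clec9a those counts were 28 and 15 of 1292 genes, of which 10 and 5 were shared with the larger sets. Fewer genes reach 50 UMIs in that selection: only 26 of the 45 and 31 of the 77 were still tested.

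**Figure D5:**
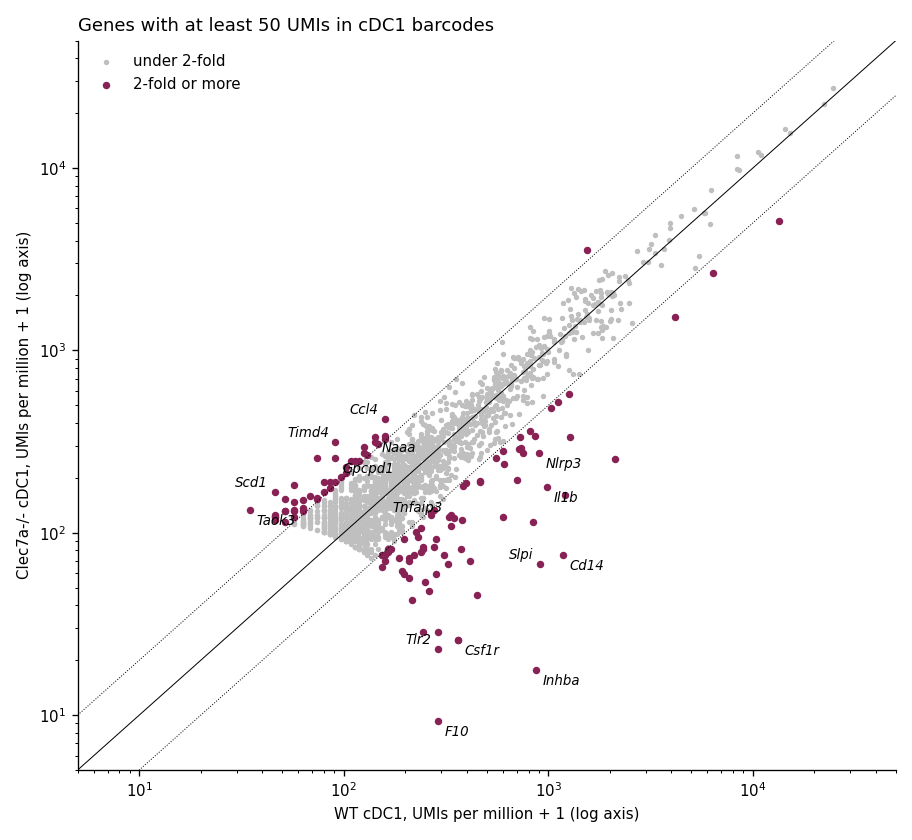
CPM plus 1 in Clec7a-/- members against WT members for 1797 genes, both axes on a log scale, with the line of equality and dotted lines at 2-fold. Genes at least 2-fold apart are dark; Inhba, F10 and Cd14 lie farthest below the line.

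The 10 genes with the lowest ratios had most of their WT UMIs in the 16 barcodes with 1 UMI of Xcr1 and Clec9a. Inhba, a subunit of activins, had 154 UMIs in 10 WT barcodes and 6 in 2 Clec7a-/- barcodes, 867 against 16.6 CPM, a log2 ratio of -5.60 (-7.17 to -4.55). All 154 came from WT barcodes with 1 UMI of Xcr1 and Clec9a, and the 21 other WT members had 0. Cd14, the lipopolysaccharide co-receptor, had 210 against 27 UMIs, of which the 21 WT members with 2 or more UMIs held 12. Csf1r, the receptor for macrophage colony-stimulating factor, had 64 against 9, of which they held 1. F10, Spp1, Slpi, Tlr2, Clec4n, Clec4e and Ccr1 had log2 ratios between -4.90 and -3.08. Over the 10 genes 95.9% of WT UMIs lay in the 16 barcodes with 1 UMI, and 11 of those 16 held at least 10 of them against 0 of the other 21.

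Summed markers of monocytes were also higher in WT members, but they were not split by UMIs of Xcr1 and Clec9a. The 6 genes of a monocyte list summed to 732 CPM in WT and 185 in Clec7a-/- members, with the most UMIs from Plac8 (242 and 180 CPM), and Ly6c2, Chil3, Vcan and F13a1 all at 0 in Clec7a-/-. A neutrophil list of 7 genes summed to 529 and 302, and a macrophage list of 10 to 208 and 108. The part of these cells in the lower genes was not tested further than by the split above. All 21 UMIs of 4 plasmacytoid dendritic cell genes lay in 1 WT barcode. The natural killer list (Ncr1, Klrb1c, Gzma and Nkg7) and the fibroblast list (Col1a1, Col3a1 and Dcn) had 0 UMIs in both libraries. Outside these lists, the killer cell lectin-like receptor genes Klrd1 and Klrk1 had 5 and 3 UMIs in WT and 18 and 12 in Clec7a-/- members. The epithelial gene Epcam was the higher in Clec7a-/-, with 1 UMI in WT and 13 UMIs in 12 Clec7a-/- barcodes. Krt8, Krt18 and Krt19, the other epithelial markers, were at 0 in both libraries.

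The 10 genes with the highest ratios kept their direction in the split, with log2 ratios between 1.03 and 2.59 among barcodes with 2 or more UMIs of Xcr1 and Clec9a. They were picked on all members, which include these barcodes, so the direction was partly fixed by the choice. Timd4, which encodes the phosphatidylserine receptor TIM-4 used to take up dying cells, had 16 UMIs in 8 WT barcodes and 114 in 23 Clec7a-/- barcodes. Its levels were 90.1 and 315 CPM, a log2 ratio of 1.77 (1.05 to 2.66), and 117 (63.8 to 196) and 336 (270 to 413) among barcodes with 2 or more UMIs. Taok3, a kinase, had 6 against 48 UMIs and a log2 ratio of 1.87 (0.75 to 3.49), and Scd1, the stearoyl-CoA desaturase, 8 against 60 and 1.81 (0.81 to 3.16). Mbnl1, an RNA splicing regulator, had 10 against 66 and 1.64 (0.73 to 2.82). Pebp1, Gpcpd1, Hnrnpul1, Ccl4 and Drap1 had log2 ratios between 1.36 and 1.52, and Pebp1 turned to -0.093 after thinning. The heat shock gene Hspa1b had 13 against 92 UMIs, but 84.8% of the latter came from 1 barcode, and its log2 ratio was -0.39 under the 5% mitochondrial limit, -3.81 with both genes required and -1.06 without cycling members. Among Xcr1 or Clec9a barcodes over the maturation limit Timd4 was also the higher in Clec7a-/-, with a log2 ratio of 0.70, whereas Taok3 and Mbnl1 were at -0.08 and -0.02 there and Ccl4 at -1.83.

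Of the 45 higher genes 4, and of the 77 lower genes 3, stayed 2-fold apart under 6 alternatives, and these 7 were picked out for it, so their stability is partly fixed by the choice. Timd4, Mbnl1 and Gpcpd1 stayed at least 2-fold higher under 18 of 19 alternatives, and without the maturation limit their log2 ratios were 0.80, 0.25 and 0.17. The chemokine gene Ccl4 was under 2-fold without that limit (0.04), with doubled C1q and S100 limits (0.34) and without Scrublet calls (0.98). It was found in 13 of 37 WT but 11 of 56 Clec7a-/- members, and 36.2% of its Clec7a-/- UMIs came from 1 barcode. Il1b, Nlrp3 and Tnfaip3, named after their values were seen, were the 3 lower genes. The 6 alternatives were 2 or more UMIs of Xcr1 and Clec9a, 2 or more of the 10 other markers, a mean over cells, a pseudocount of 5, no cycling members and a score under 10. Il1b, the cytokine processed by the inflammasome, had 174 UMIs in WT and 64 in Clec7a-/-, 979 against 177 CPM and a log2 ratio of -2.46 (-2.90 to -2.05). Its log2 ratio was -0.42 without the maturation limit and -0.63 with 5 UMIs of the other markers. Among barcodes with 2 or more UMIs it was at 400 (295 to 530) against 123 (84.9 to 173). Nlrp3, an inflammasome sensor, had a log2 ratio of -1.73 (-2.11 to -1.36), and Tnfaip3, an inhibitor of NF-kappaB signaling, -1.42 (-2.02 to -0.83). Over the maturation limit Il1b was at -0.17 (-0.30 to -0.05). Summed neutrophil and monocyte markers were also higher in WT members, and their part in the result was not tested.

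Few genes of the antigen presentation lists were 2-fold apart, as among all genes tested, of which 2.50% were higher and 4.28% lower. Of 7 MHC class II genes tested 1 was at least 2-fold higher in Clec7a-/- and 0 lower. Their median log2 ratio was 0.16, but -0.16 with 2 or more UMIs of Xcr1 and Clec9a, -0.11 with both genes required and -0.12 after thinning. H2-Ab1 was at 14436 and 16318 CPM, a log2 ratio of 0.18 (0.11 to 0.24), and among barcodes with 2 or more UMIs at 18676 and 16745, so its direction depended on the selection. H2-DMb2, a peptide exchange chaperone subunit, was the 1 over 2-fold, at 67.5 and 158. Of 15 MHC class I genes tested 0 were 2-fold higher or lower and the median was -0.10. The immunoproteasome gene Psmb8 was at 236 and 432, a log2 ratio of 0.86 (0.37 to 1.40), and B2m, the light chain of MHC class I, at 2476 and 1815, a log2 ratio of -0.45 (-0.62 to -0.27). Of 9 cross-presentation and phagosome genes 0 were 2-fold higher or lower.

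Of 12 cDC1 identity genes tested 1, Naaa, was at least 2-fold higher in Clec7a-/- and 0 were lower, beside 2.50% and 4.28% of all genes, with a median log2 ratio of 0.22. That median was 0.06 with 2 or more UMIs of Xcr1 and Clec9a, and its sign turned with both genes required (-0.13), thinning (-0.14) and 5 UMIs of the other markers (-0.14). Naaa had a log2 ratio of 1.23 (0.62 to 1.93) and Wdfy4 of 0.99 (0.49 to 1.55), and with 2 or more UMIs of Xcr1 and Clec9a the ratios were 0.37 and 0.64. Naaa turned to -0.12 with both genes required and to -0.13 after thinning. Ifi205, an interferon-inducible gene, was at 293 and 177 CPM, a log2 ratio of -0.73 (-1.28 to -0.17). Itgae, Irf8 and Id2, a transcriptional inhibitor needed for cDC1s, had log2 ratios of 0.17, 0.27 and 0.12, with 0 inside each interval. Pdcd1lg2, which encodes the checkpoint ligand PD-L2, was at 124 and 293, a log2 ratio of 1.22 (0.57 to 1.98) that was -0.0028 without the maturation limit, and Cd274, which encodes PD-L1, at 512 and 354, -0.53 (-0.93 to -0.13). These were 2 of 8 costimulation and checkpoint genes tested, of which 1 was 2-fold higher and 0 lower, beside the same shares of all genes.

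Genes of the Dectin-1 pathway and of related lectins included several that were lower in Clec7a-/- members. Of 8 Dectin-1 signaling genes tested 3 were at least 2-fold lower and 0 higher, beside 4.28% and 2.50% of all genes, with a median log2 ratio of -0.68. They were Fcer1g, the Fc receptor gamma chain, at -2.87 (-3.42 to -2.38), Nfkb1 at -1.13 (-1.50 to -0.76) and the adaptor Bcl10 at -1.06 (-1.67 to -0.44). The kinase Syk was at -0.25 (-0.90 to 0.43). With both Xcr1 and Clec9a required, Bcl10 turned to 0.021 and Fcer1g to 0.23. Fcer1g had 149 UMIs in WT members, of which those with 2 or more UMIs of Xcr1 and Clec9a held 6, and the median of the 8 genes was -0.30 in that selection. Clec9a was left out of the C-type lectin genes tested. Of the others, Clec4n, Clec4e and Clec4d were 2-fold lower, each with most WT UMIs in barcodes with 1 UMI. Ly75 and Clec12a were at 0.45 and 0.17. With 2 or more UMIs of Xcr1 and Clec9a, Clec4n turned to 2.01 (0 and 4 UMIs) and Clec4d to 0.76 (6 and 24). Clec4e turned to 1.00 with both genes required. Clec7a itself is not analysed here.

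Clec9a chose members, so its own level is a description. It was at 208 CPM (147 to 287) in WT and 71.9 (47.0 to 105) in Clec7a-/-, a log2 ratio of -1.53 (-2.32 to -0.77), while Xcr1 was at 394 (307 to 498) and 362 (303 to 430). Clec9a was found without Xcr1 in 7 WT and 2 Clec7a-/- members. Where members were chosen on Xcr1 alone, so that the rule did not use it, Clec9a had 27 UMIs in 30 WT and 24 in 54 Clec7a-/- barcodes, a log2 ratio of -1.32 (-2.18 to -0.47). In Xcr1 or Clec9a barcodes over the maturation limit, which Clec9a also helped to choose, it was -1.11. The gene lies at chr6:129408862-129424763 (plus strand, GENCODE M21 on GRCm38) in the cluster of C-type lectin genes that also holds Clec7a. Of 80 genes within 2 Mb, 35 had a member UMI and 4 had at least 50. Apart from Clec9a, which the rule used, 0 of these were 2-fold higher or lower, beside 2.50% and 4.28% of all genes. Some with fewer UMIs differed. Klrb1b, a killer cell lectin-like receptor gene, had 21 UMIs in WT and 8 in Clec7a-/- members, a log2 ratio of -2.36 (-3.80 to -1.18), and 82 and 14 over the maturation limit. BC035044 had 5 and 31 UMIs in members, a log2 ratio of 1.49 (0.23 to 3.33), and 0.33 (-0.31 to 1.03) over the limit. Olr1 had 4 and 0 in members, with an upper bound of -0.43 on its log2 ratio. Klra17 had 0 and 4, and 0 and 26 over the limit, and Klra3 2 and 0, and 10 and 0 over it. The member intervals of Klra17 and Klra3 included 0. The Klra genes are a family of related sequences, and whether reads were split among them was not tested. The neighbor Clec12a, an inhibitory lectin 43.6 kb away, was at 0.17 (-0.71 to 1.18).

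Of 19 cytokine genes 14 were detected in members and 2 had 50 UMIs, Il1b and Il1rn, both at least 2-fold lower in Clec7a-/-, beside 4.28% of all genes. Il22ra2, which encodes the interleukin 22 binding protein, had 0 UMIs in both libraries, which by the same floor of 3 counts allows up to 16.9 CPM in WT and 8.30 in Clec7a-/-. Ptgs2, the inducible cyclooxygenase of prostaglandin synthesis, had 35 UMIs in WT and 21 in Clec7a-/-, 197 against 58.1 CPM and a log2 ratio of -1.75 (-2.62 to -0.94). With 2 or more UMIs of Xcr1 and Clec9a it had 4 and 10 UMIs and a log2 ratio of 0.07. Il1rn, the interleukin 1 receptor antagonist, was at 1199 and 160, a log2 ratio of -2.89 (-3.35 to -2.48). Unlike Il1b, Il1rn was not among the 3 lower genes that were still tested and 2-fold apart under the 6 alternatives. Of 22 retinoid enzymes and receptors 12 were detected and 0 had 50 UMIs, and Aldh1a2, the retinoic acid enzyme of migratory dendritic cells, was at 5.63 and 8.30.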

How the data were processed

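Single-cell libraries were made with a microwell kit that counts the 3' ends of mRNAs, 1 library for each genotype. The authors deposited 1 matrix of UMI counts per gene and barcode for each library; the submitters' processing notes name Cell Ranger 2.1.1 and the mm10 build. The counts are not normalized, and a 3' UMI level was compared between groups for 1 gene at a time; levels of different genes were not compared, beyond naming the marker with the most UMIs in a list. Library totals were 15869215 UMIs over 3467 barcodes in WT and 11808230 over 3080 in Clec7a-/-.

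From the deposited counts, members were selected as stated above, and their UMIs were summed for each library and expressed as CPM, UMIs per 1000000. Intervals are exact 95% intervals (Clopper-Pearson for shares, Poisson for levels, conditional binomial for ratios). Log2 ratios used a pseudocount of 0.5 UMIs and genes with at least 50 UMIs over both libraries in at least 10 members. With 1 library for each genotype no test was run. Named genes were those of fixed lists, the 10 with the largest ratio in each direction, the 20 highest against type 2 dendritic cells and those within 2 Mb of Clec9a. Genes named against the mature end, and those lower than in type 2 dendritic cells, were chosen after their values were seen, as was the comparison with a score of 50 and over. The members and lists were chosen with earlier results of these data known. Mature dendritic cells had a maturation score of at least 20, and type 2 dendritic cells at least 1 UMI of Cd209a or Flt3 and a score under 5; both, and Ly6c2 monocytes, had 0 UMIs of Xcr1 and Clec9a and met the members' C1q, S100 and Cd3 limits. The scripts were tested on simulated data.

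Python 3.11.15 with numpy 2.4.6, scipy 1.17.1, pandas 2.3.3, scanpy 1.11.5 (Scrublet) and matplotlib 3.10.9 was used, and R 4.3.3 with edgeR 4.0.16 for TMM factors alone. Of 32285 gene identifiers 32158 matched GENCODE M21. Scrublet marked 0 WT and 8 Clec7a-/- barcodes (0.296%), too few to count as a working call, so doublets were not removed. Alternatives varied the mitochondrial and gene limits, the marker demands, the score limits, depth, pseudocount, minimum and scaling. Clec7a is not analysed here.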

Additional observations from a re-analysis of the deposited data

How the results depend on the processing

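No paired analysis was possible because each genotype had 1 library, and for the same reason no replicate could be left out. Of 88 values of the counts and shares under alternatives 66 stayed close to the reported value and 22 moved. The larger cDC1 share of Clec7a-/- kept its direction under all 14 alternatives, and the interval of its log2 ratio included 0 under 3 of them, the 5% mitochondrial limit (0.43), both genes required (0.80) and doubled C1q and S100 limits (0.55). With at least 5 UMIs of the 10 other markers, chosen after seeing the data, the log2 ratio was 1.66, and that of the share of dendritic barcodes was 0.56. The number of genes tested differed between selections, so the gene counts cannot be compared without it. The 45 of 1797 genes higher in Clec7a-/- became 28 of 1292 with 2 or more UMIs of Xcr1 and Clec9a and 17 of 709 with both genes. With 2 UMIs of the other markers they were 28 of 1609. A maturation score under 10 gave 75 of 2416, and no maturation limit 83 of 5483. After thinning they were 26 of 1051, and as a mean over cells 70 of 1797. A pseudocount of 5 gave 11 of 1797, and a minimum of 20 UMIs 238 of 3592. The 77 of 1797 lower genes became 15 of 1292 with 2 or more UMIs and 12 of 709 with both genes. With 2 UMIs of the other markers they were 31 of 1609, and with 5 of them 31 of 1452. Doubled C1q and S100 limits gave 139 of 1970, thinning 22 of 1051 and a minimum of 20 UMIs 237 of 3592. The 46 genes higher than in type 2 dendritic cells became 28 with the 5% mitochondrial limit, where fewer genes were tested, and 5 with a pseudocount of 5. They became 109 with a minimum of 20 UMIs, where more genes were tested, and 129 where that class was chosen by Cd209a alone.

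Of 2907 values of named genes 2529 stayed close, 350 moved and 28 changed direction. With 2 or more UMIs of Xcr1 and Clec9a the log2 ratios were 2.01 for Ccr1 and Clec4n, 0.76 for Clec4d, 0.72 for Csf1r, 1.16 for Inhba and 0.065 for Ptgs2, most from a few UMIs. With both genes required they were 0.021 for Bcl10, 0.71 for Ccr1, Clec4n and Ptgs2, 0.82 for Clec4d, 1.00 for Clec4e, 0.18 for Cxcl3, 0.23 for Fcer1g, 0.15 for Marcksl1, -0.12 for Naaa, -4.50 for Hspa1a and -3.81 for Hspa1b. Clec4n was 0.11 with 2 and 1.99 with 5 UMIs of the other markers, where Cxcl3 was 0.43. Hspa1a and Hspa1b were -1.39 and -0.39 under the 5% mitochondrial limit and -0.91 and -1.06 without cycling members. After thinning Naaa was -0.13 and Pebp1 -0.093, and Pdcd1lg2 was -0.0028 without the maturation limit. The cause was not tested.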

Other observations

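The Il12b difference at the mature end of the Xcr1 or Clec9a barcodes was not seen in mature dendritic cells without those 2 genes. In the latter Il12b stood at 97.1 CPM (79.7 to 117) in WT and 96.8 (83.2 to 112) in Clec7a-/-, against 519 and 171 in Xcr1 or Clec9a barcodes with a maturation score of 50 and over. The mature dendritic cells were taken from a maturation score of 20 upward, so the 2 classes were not matched on that score. In Xcr1 or Clec9a barcodes of both libraries Il12b was higher at 50 and over than at 20 to 50. The comparison thus cannot separate the 2 genes from the score, and the difference between the classes was not tested.

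Cell cycle mRNA was not limited to the members along the maturation score. In Clec7a-/- at least 3 of 8 cycling genes were detected in 8 of 25 barcodes with a score of 5 to 10 (32.0%) and in 7 of 47 with a score of 10 to 20 (14.9%), against 6 of 104 (5.77%) at 50 and over. In WT the corresponding counts were 0 of 13, 1 of 20 and 3 of 57.

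Il22ra2, at 0 UMIs in members, stood at 54.0 CPM in WT and 64.9 in Clec7a-/- mature dendritic cells, where it was found in 8 of 278 and 15 of 491 barcodes.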
